A study of Mus musculus with 8 samples.

Results

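The epithelial sodium channel subunits are the products of Scnn1a, Scnn1b and Scnn1g. All probe sets of both array types whose annotation names one of these genes, by a current or an older symbol, were taken, and 1 of 24965 probe sets met this. It was the probe set 110692_at of Scnn1b on MG-U74B. In the annotation used here 0 probe sets named Scnn1a and 0 named Scnn1g, so those subunits have no value below. The family was selected on measured values of these same arrays, with the difference between genotypes already known, so the levels of Scnn1b are given as a description, with no test.

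The study measured total RNA of mouse pancreatic islets on the Affymetrix oligonucleotide arrays MG-U74A and MG-U74B. Each array type held 2 wild type and 2 knock-out arrays, 8 in all, and the labels call the replicates biological. The knock-out islets came from mice lacking 1 gene, and the age, strain and sex of the animals, any pooling of animals and the form of the deleted allele are not given in the sources used here. With 2 arrays a group the number of arrays limits the precision, and the p-values take their error from differences between these arrays, part of which may be technical.

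The epithelial sodium channel lets sodium enter a cell across its apical membrane and is blocked by amiloride. Its alpha subunit, from Scnn1a, is needed for current, and the beta and gamma subunits, from Scnn1b and Scnn1g, raise the number of channels at the surface and carry a motif that the ubiquitin ligase Nedd4-2 binds. The channel is best known from the kidney collecting duct, the distal colon and the airway, where aldosterone or glucocorticoids raise its activity and serine proteases open it by cleaving its extracellular loops. Islets are a mix of hormone cells with some duct, acinar, vessel and immune cells, and in such bulk RNA fewer cells of a type and less RNA per cell cannot be told apart.

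The promoter of Scnn1b is shown because it is the regulatory stretch of the only subunit gene with a value. RefSeq's table holds 1 start for Scnn1b in GRCm38.p6, and the 250 bases before it, at chr7:121864788-121865037 on the + strand, read as follows, with a GC box match in capitals.
Scnn1b: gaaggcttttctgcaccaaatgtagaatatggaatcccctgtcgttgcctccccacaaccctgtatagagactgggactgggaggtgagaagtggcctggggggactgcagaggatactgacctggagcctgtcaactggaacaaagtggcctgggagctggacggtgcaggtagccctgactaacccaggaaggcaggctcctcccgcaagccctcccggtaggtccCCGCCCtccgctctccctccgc

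The window was 60.8% G and C, against a median of 52.4% over 32851 mouse promoter windows of the same length. The GC box GGGCGG, searched on both strands, matched 1 time, from position -22 relative to the start, and 32.7% of the windows held it. The steroid receptor hexamer TGTTCT, present in 16.1% of the windows, and the TATA box TATAAA, present in 12.4%, had 0 matches on either strand, and no motif matches overlapped. These are matches of letters only, and no binding was measured.

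Scnn1b was bright in wild type islets and listed below 0 in knock-out islets. Its intensity was 1322 on wild type array 1 and 1454 on wild type array 2, a mean of 1388 ± 93.3 (SD, n = 2). On knock-out array 1 it was -318 and on knock-out array 2 it was -134, a mean of -226 ± 130 (SD, n = 2). Both wild type arrays lay far above both knock-out arrays, and the groups did not overlap, with a gap of 1456 between the lower wild type and the higher knock-out value. Each spread rests on 2 arrays, and the gap was known when the gene was chosen, so it is a description only. On arrays of this kind a value below 0 can arise when mismatched control probes are brighter than the matched probes, and it sets no level for the transcript, so no fold is given for Scnn1b.

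**Figure D1:**
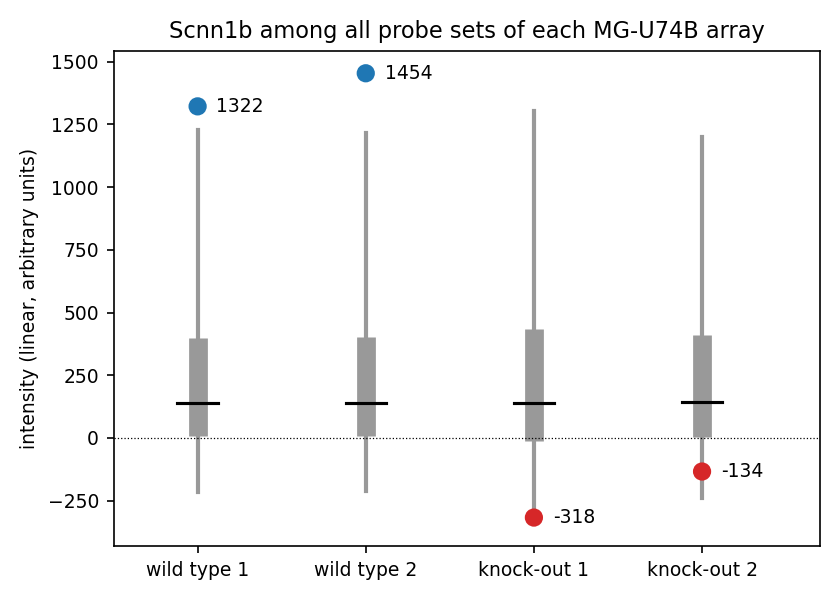
Intensity of Scnn1b (linear, arbitrary units) on each of the 4 MG-U74B arrays (points), over the spread of all 12411 probe sets of the array other than controls: a thin bar from the 5th to the 95th percentile, a thick bar from the 25th to the 75th and a black line at the median. Scnn1b sits above the thin bar on both wild type arrays, at 1322 and 1454, and below 0 on both knock-out arrays.

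The place of Scnn1b among all probe sets moved accordingly. On the wild type arrays 95.5% and 96.4% of the 12411 probe sets were lower than Scnn1b. These are places among intensities, and intensities of different probe sets do not rank transcripts by abundance. On the knock-out arrays 5.62% and 8.73% were lower. Values below 0 were common on these arrays, 26.7% and 24.1% of the knock-out and 23.5% and 23.8% of the wild type probe sets, and Scnn1b was among the lower of them. The median intensity of the 4 arrays, between 137 and 144, was nearly the same in both genotypes. Of the 802 probe sets above 1000 on both wild type arrays, Scnn1b was the only 1 below 0 on both knock-out arrays, a level of 1000 that was picked after its values were seen.

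On the log2 scale used for all probe sets, with values below 0 set to 0 and 25 added, Scnn1b was 10.40 and 10.53 on the wild type arrays and 4.64 on both knock-out arrays. The difference of these values, knock-out minus wild type, was -5.82. Both knock-out values are that of an intensity of 0, so the difference is set by the wild type level and the constant added and measures no fold: it was -7.13 with 10 added and -4.84 with 50 added. By this measure Scnn1b ranked 1 from the lowest of the 7861 tested probe sets of MG-U74B, and ranked 2 with 50 added, 3 without knock-out replicate 1 and 2 without knock-out replicate 2. It passed the filter on low values, a mean of at least 62.5 over the 4 arrays, through its wild type arrays alone. On this array type 8.87% of the tested probe sets were lower in knock-out with an adjusted p under 0.05, and 28.8% had both knock-out arrays below both wild type arrays, with nothing read from these shares for Scnn1b.

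**Figure D2:**
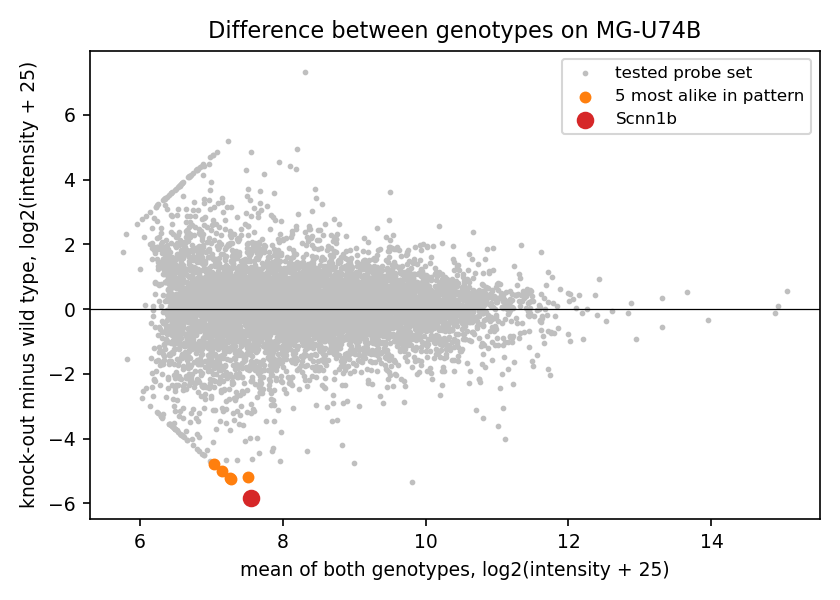
Difference between genotypes (knock-out minus wild type, log2(intensity + 25)) against the mean of both genotypes for the 7861 tested probe sets of MG-U74B. Scnn1b (red) is the lowest point, at -5.82, and the 5 named probe sets most like it in pattern (orange) lie next to it.

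The named probe sets most like Scnn1b were found by the distance between log2 profiles over the 4 MG-U74B arrays, each profile centred on its own mean, among 6948 tested probe sets with 1 gene symbol. They were Med25, a subunit of the Mediator complex, at a distance of 0.602, 1700019D03Rik at 0.622, Rnf128, a ubiquitin ligase, at 0.766, Lmtk2, a membrane kinase, at 0.914 and Scrn1, a secernin, at 1.07. Med25 had 922 and 903 on the wild type arrays and -132 and -25.7 on the knock-out arrays. Rnf128 had 1117 and 1035 against 11.7 and -54.6. All 5 were between 608 and 1117 on both wild type arrays and near or below 0 on both knock-out arrays, and 1 of their 10 knock-out values, that of Rnf128 on array 1, was above 0. Likeness over 4 arrays of 2 groups says little beyond the size of the difference, since these probe sets share the arrays and the floor at 0.

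**Figure D3:**
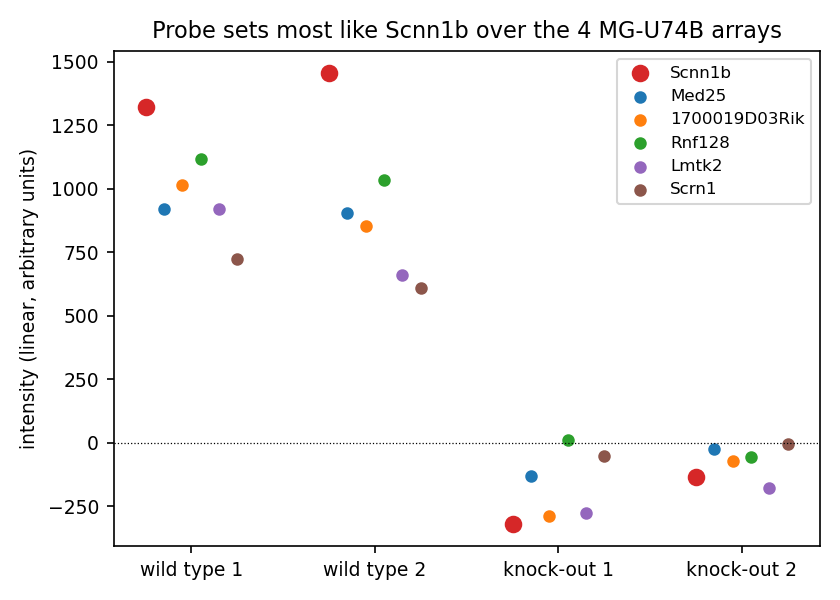
Intensity (linear, arbitrary units) of Scnn1b and of the 5 named probe sets most like it on the 4 MG-U74B arrays, offset sideways for legibility. Scnn1b is the brightest of the 6 on both wild type arrays, and of the 12 knock-out values 11 are below 0.

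The acid-sensing ion channels belong to the same degenerin family as the epithelial sodium channel. Of 5 such genes, 4 had a probe set, and 1 of these, Asic2, was bright enough to be tested. Asic2 read 264 and 244 on the wild type and 175 and 129 on the knock-out arrays of MG-U74A, and fell by 0.67 ± 0.17 (log2, SE, limma adjusted p = 0.0337). Over all tested probe sets of that array type 29.0% were lower and 23.9% higher in knock-out past the threshold, and the median log2 change was -0.09. The call for Asic2 ended under 3 alternatives, with no filter on low values, without wild type replicate 1 and without wild type replicate 2, with an adjusted p of up to 0.159 over its alternatives. Asic3, on MG-U74B, read 107 and 82.8 in wild type and -413 and -398 in knock-out and was too dim to be tested, as were both probe sets of Asic1, at most 87.4 in wild type, and that of Asic5, at most 7.30 on any array. The acid-sensing channels therefore give 1 tested gene beside Scnn1b.

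Among genes that control the channel on MG-U74A, 7 of 12 tested genes fell, 1 rose and 4 did not pass. Over all tested probe sets 29.0% fell and 23.9% rose past the threshold, shares that stand beside every list count on MG-U74A. The median was -0.58 beside -0.09 for all tested probe sets. The list holds genes whose products raise the channel and genes whose products lower it, so the counts give no direction for its activity. The ubiquitin ligase gene Nedd4l, whose product Nedd4-2 removes the channel from the surface, read 370 and 390 in wild type and 178 and 183 in knock-out. It fell by 0.98 ± 0.09 (adjusted p = 0.00182), and its second tested probe set on this array type, at -0.54 ± 0.19, did not pass (adjusted p = 0.0765). Usp2, a deubiquitinase that removes ubiquitin from the channel, fell by 1.75 ± 0.17 from 179 ± 0.918 to 35.7 ± 3.82 (SD, n = 2, adjusted p = 0.00226). Its knock-out mean lay below the level of the filter on low values, which Usp2 passed through its wild type arrays alone. The size of its log2 difference rests in part on the constant added, at -2.05 with 10 and -1.42 with 50. Another probe set of Usp2 was below 0 on every array, with overlapping genotypes, and was not tested. Wnk1, a kinase that raises channel activity through the SGK kinases, fell by 1.09 ± 0.07 from 559 ± 8.70 to 249 ± 11.0 (adjusted p = 8.72e-04). For these 3 genes the knock-out arrays lay below both wild type arrays, which was a condition for naming them and is no further result.

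Tsc22d3, a glucocorticoid-induced gene whose product holds Nedd4-2 off the channel, fell by 0.98 ± 0.23 (adjusted p = 0.0264). That call ended with no filter, with the replicate block, and without wild type replicate 1, wild type replicate 2 or knock-out replicate 1 (adjusted p up to 0.151). Usp10, another deubiquitinase, was the gene that rose, by 1.01 ± 0.16 from 94.7 ± 18.5 to 214 ± 5.31 (adjusted p = 0.00985), and it reached an adjusted p of 0.0508 without wild type replicate 2. Sgk1, the aldosterone-induced kinase that inactivates Nedd4-2, read 978 and 1036 in wild type and 1027 and 1102 in knock-out, and its change of 0.08 ± 0.06 did not pass (adjusted p = 0.331). Without wild type replicate 2, 5 of the 12 genes passed in place of 8.

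On MG-U74B, where 8.87% of the tested probe sets fell and 8.59% rose, 0 of 10 tested control genes passed limma's adjusted threshold, and 3 had an unadjusted p under 0.05. Those shares stand beside every list count on MG-U74B. The median was -0.24 beside 0.11 for all tested probe sets. The brightest of 3 tested Nedd4l probe sets read 217 and 321 in wild type and 584 and 554 in knock-out, a change of 1.04 ± 0.24 that did not pass (adjusted p = 0.0502). The others, at -0.37 ± 0.34 and -0.08 ± 0.43, did not pass either, and which transcripts each probe set detects was not tested. Wnk1 had 2 tested probe sets there, at 0.06 ± 0.30 (886 ± 273 in wild type and 924 ± 264 in knock-out) and -0.12 ± 0.36, and neither passed. The glucocorticoid receptor gene Nr3c1 was tested by 3 probe sets, of which the 2 brighter gave 0.18 ± 0.28 and -0.05 ± 0.28, and the third, with 465 and 561 in wild type and 226 and 281 in knock-out, gave -0.95 ± 0.22 (adjusted p = 0.0495). Without wild type replicate 1 or wild type replicate 2, 0 of 7861 probe sets of MG-U74B passed the adjusted threshold, with 1873 and 1817 at an unadjusted p under 0.05.

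Among the proteases that cleave the channel and their inhibitors, MG-U74A had 1 gene that fell and 1 that rose out of 5 tested (median -0.16). Spint1, an inhibitor of the membrane proteases matriptase and prostasin, read 1358 and 1404 in wild type and 235 and 317 in knock-out. It fell by 2.24 ± 0.15 (adjusted p = 8.83e-04), and groups that lay apart were a condition for naming it. Plat, tissue plasminogen activator, rose by 0.77 ± 0.12 from 426 ± 28.2 to 744 ± 109 (adjusted p = 0.00926), with an adjusted p of 0.055 without wild type replicate 2, when 1 of the 5 genes passed. Furin, which cuts the alpha and gamma subunits on their way to the surface, did not pass at -0.16 ± 0.12 (adjusted p = 0.324). Both probe sets of Prss8, prostasin, were between -40.4 and 38.6 on all 4 arrays and were not tested. On MG-U74B 0 of 2 tested genes passed and 1 had an unadjusted p under 0.05: St14, matriptase, with 507 and 533 in wild type and 324 and 392 in knock-out (-0.51 ± 0.19, adjusted p = 0.128). A probe set of Spint1 there read 103 and -75.2 in wild type and -12.1 and 144 in knock-out, so the genotypes overlapped, and it was too dim to be tested.

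Sodium that enters through the channel leaves by the sodium pump. Out of 5 pump genes tested on MG-U74A, 1 rose and 1 fell (median 0.05). Fxyd5, a small membrane protein that modulates the pump, read 150 and 142 in wild type and 1278 and 1197 in knock-out, and rose by 2.89 ± 0.07 (adjusted p = 1.23e-04). Atp1b1, the common beta subunit of the pump, fell by 1.13 ± 0.09 from 357 ± 11.7 to 149 ± 4.18 (adjusted p = 0.0015), and a second probe set of it, near or below 0 in both genotypes, was not tested. Atp1b3, another beta subunit, was bright and close in both genotypes, with 2381 and 2430 in wild type and 2547 and 2435 in knock-out (0.05 ± 0.04, adjusted p = 0.349). On MG-U74B 0 of 2 tested pump genes passed and 1, Fxyd7, had an unadjusted p under 0.05 (2.46 ± 0.70, adjusted p = 0.0769). Fxyd7 read -60.8 and 49.7 in wild type and 266 and 168 in knock-out there. It passed the filter through the knock-out arrays alone, and 1 wild type value was set to 0, so its log2 difference rests in part on the constant added. Its probe set on MG-U74A was below 0 on every array and was not tested.

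Other genes of epithelial salt and water transport gave 1 rise and 2 falls of 8 tested on MG-U74A, with a median of -0.13. Car2, a carbonic anhydrase, rose by 1.14 ± 0.09 from 186 ± 9.05 to 440 ± 23.6 (adjusted p = 0.00139). The potassium channel gene Kcnq1 fell by 0.49 ± 0.10 (adjusted p = 0.0179) and Slc12a2, which brings sodium, potassium and chloride in together, by 0.27 ± 0.08 (adjusted p = 0.0457). Both calls ended without wild type replicate 1 or wild type replicate 2, that of Slc12a2 also with quantile normalization, with the replicate block and without knock-out replicate 2, with an adjusted p of up to 0.130 and 0.244, and 1 of the 8 genes then passed without either wild type replicate. Aqp1, the water channel of vessels and ducts, had a brighter probe set that did not pass (-0.15 ± 0.13) and a second that read -25.2 and -41.1 in wild type and 409 and 423 in knock-out, a probe set singled out after its values were seen. Both its wild type values were set to 0 and it passed the filter through the knock-out arrays alone, so its log2 difference rests on the constant added, at 4.14 with 25, 5.41 with 10 and 3.22 with 50. Cftr, the chloride channel that works beside the sodium channel in many epithelia, read 65.2 and 79.8 in wild type and 70.2 and 59.9 in knock-out on its only tested probe set (-0.11 ± 0.20, adjusted p = 0.666).

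On MG-U74B 1 of 7 tested salt and water transport genes fell and 0 rose, with a median of -0.02. Over all tested probe sets of that array type 8.87% fell and 8.59% rose past the threshold, with a median of 0.11. The gene that fell was the water channel Aqp4, with 329 and 272 in wild type and 69.5 and 63.4 in knock-out (-1.83 ± 0.33, adjusted p = 0.0274). Among voltage-gated sodium channels, the other main route for sodium into excitable cells, 0 of 8 probe sets on MG-U74A were bright enough to be tested, and on MG-U74B 1 of 3 genes fell. It was the beta subunit gene Scn4b, with 754 and 855 in wild type and 319 and 215 in knock-out (-1.53 ± 0.24, adjusted p = 0.0199), while its second probe set gave 0.13 ± 0.36. The calls for Aqp4 and Scn4b both ended with no filter and when any 1 of the 4 arrays was left out (adjusted p up to 0.167 and 0.158), and that of Scn4b also without the variance trend.

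**Figure D4:**
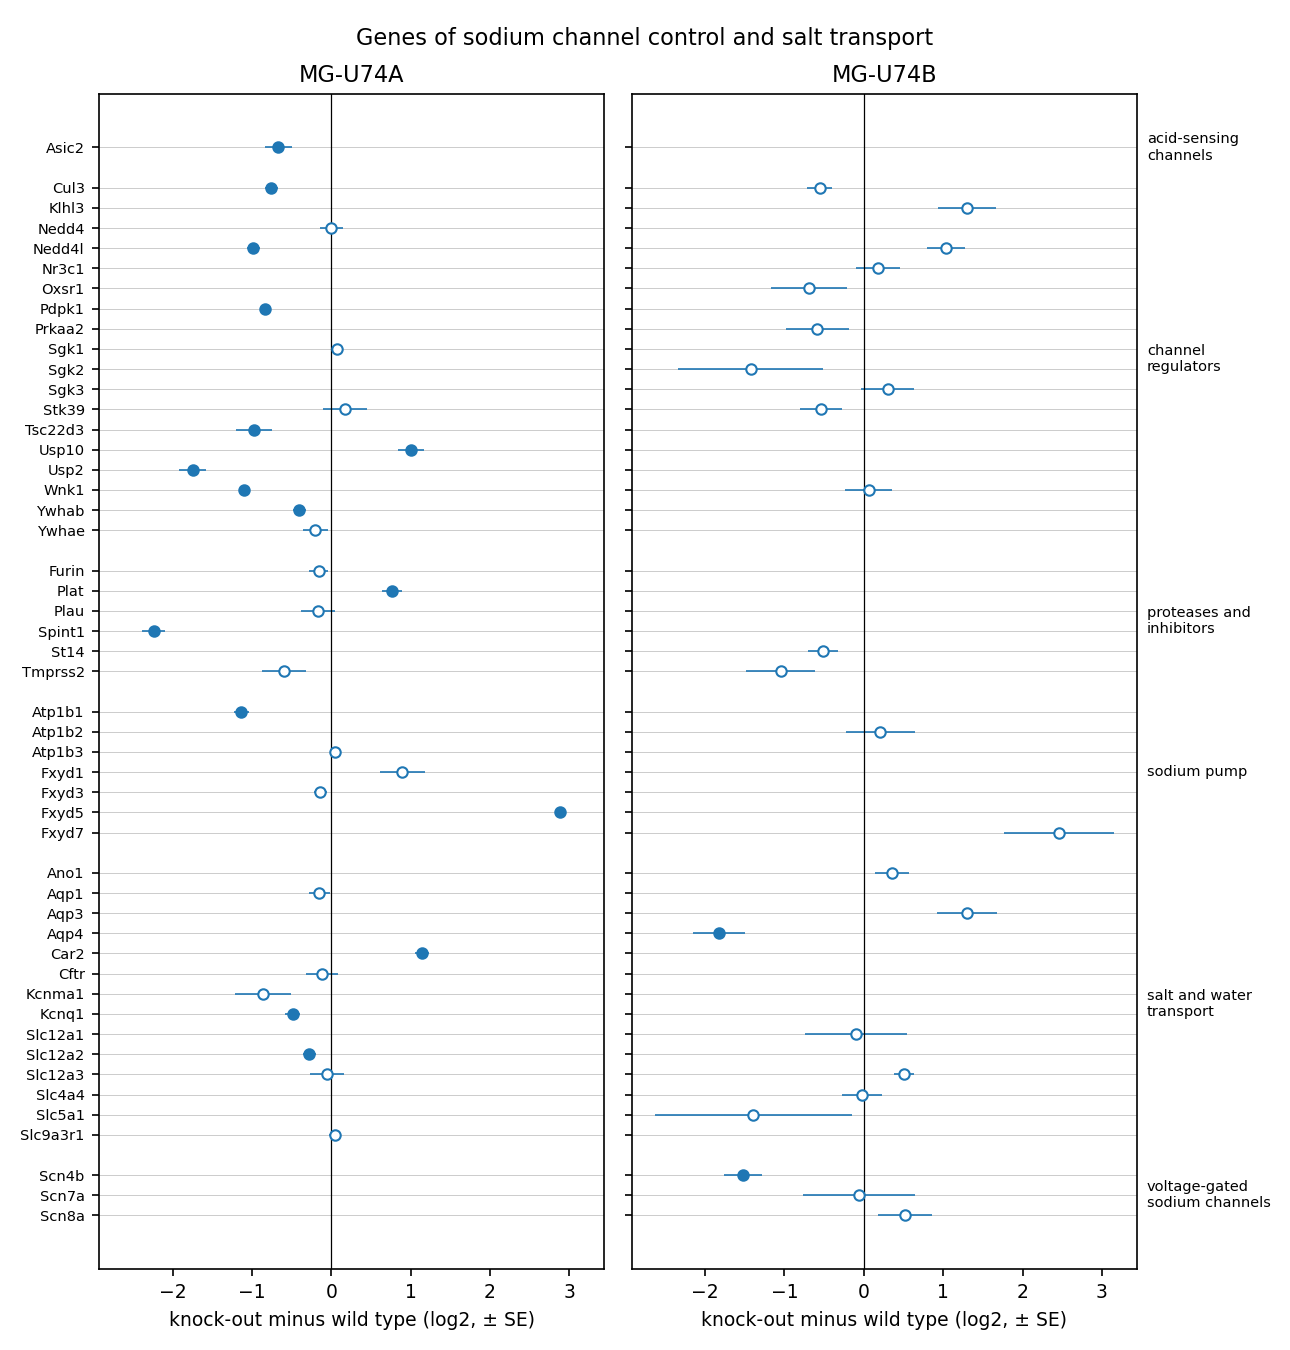
Log2 change, knock-out minus wild type, with its standard error for each tested gene of the 6 gene groups on MG-U74A and MG-U74B, each gene by its brightest tested probe set. Filled points passed the adjusted threshold of 0.05. Fxyd5 at 2.89 and Spint1 at -2.24 are the points farthest from 0 among those that passed.

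Scnn1b and Scnn1g lie next to each other among protein-coding genes of chromosome 7 in RefSeq's annotation, and Scnn1a lies on chromosome 6. The nearest gene with a probe set on the Scnn1g side was Usp31, a deubiquitinase, with 358 and 274 in wild type and 350 and 248 in knock-out on MG-U74B (-0.08 ± 0.28, adjusted p = 0.856), so the genotypes overlapped there. On the other side of Scnn1b, with 1 protein-coding gene between, was Gga2, a sorting adaptor of the Golgi, which fell by 0.81 ± 0.12 on MG-U74A (adjusted p = 0.00664), from 708 and 706 to 436 and 351. Scnn1a lies between the receptor genes Ltbr, at -0.68 ± 0.28 (adjusted p = 0.115), and Tnfrsf1a, which fell by 0.52 ± 0.04 (adjusted p = 0.00154), and their values say nothing of Scnn1a itself.

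Several measures differed between the genotypes on the same arrays as Scnn1b or on those of MG-U74A, and their part in the Scnn1b difference was not tested. The Gapdh control signal at the 3' end divided by that at the 5' end, which is higher in less complete RNA, differed on both array types. It was 3.07 and 3.12 on the wild type and 0.900 and 0.914 on the knock-out arrays of MG-U74B. On MG-U74A it was 3.15 and 3.22 on the wild type and 0.949 and 0.937 on the knock-out arrays. It cannot be told apart from genotype for any gene called here. Islet cell markers were strong, with Ins2 at 33667 and 34052 in wild type, and 13 of 13 tested markers fell on MG-U74A, their summed intensity going from 178008 and 178708 to 111688 and 100770. Of 13 tested duct markers on MG-U74A 5 rose and 6 fell, among them Krt19 (1.00 ± 0.05, adjusted p = 5.81e-04) and Epcam (-1.17 ± 0.07, adjusted p = 6.74e-04). The sum of the duct markers there was 12061 to 12626 in wild type and 10513 to 10818 in knock-out. On MG-U74B 1 duct gene was tested, Sox9, with 173 and 141 in wild type and 301 and 310 in knock-out. It did not pass (0.86 ± 0.27, adjusted p = 0.0913), and its dimmer probe set gave -0.05 ± 0.45. Of 9 acinar markers 9 fell on MG-U74A, with sums of 40163 and 40470 against 5670 and 5097, and on MG-U74B, the arrays that carry Scnn1b, 2 of 2 fell, with sums of 11941 and 12140 against 916 and 1350. On MG-U74A lymphocyte markers rose for 6 and fell for 0 of 9, and macrophage and dendritic markers rose for 12 and fell for 0 of 13. Fibroblast and stellate markers there rose for 11 and fell for 2 of 14. Beside all these MG-U74A counts, 23.9% of all tested probe sets rose and 29.0% fell. Some counted markers passed the filter on low values only through the group where they were high. Cd79a and Acta2 did so through knock-out, and Clps and Slc2a2 through wild type, so the direction of such markers was largely fixed beforehand. On MG-U74B 2 lymphocyte markers were tested, of which 1 rose, with 0 tested for macrophage and dendritic cells and 0 for fibroblast and stellate cells. Beside the MG-U74B marker counts, 8.59% of all tested probe sets rose and 8.87% fell.

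Of 10 markers of other cells known to hold the channel, in kidney collecting duct, airway, colon and skin, 8 had a probe set on MG-U74A. Of 3 tested there, 0 passed and 1 of these had an unadjusted p under 0.05, Car4. The tested markers were Car4, with 327 and 357 in wild type and 412 and 405 in knock-out, Sftpc, with 235 and 161 against 164 and 165, and Foxj1, with 256 and 218 against 162 and -24.4. Each gene was counted by its brightest probe set, and a second one of Car4, with 214 and 216 against 283 and 265, passed (0.31 ± 0.09, adjusted p = 0.0479). Krt14 and Scgb1a1 were below 0 on all 4 arrays of MG-U74A. Aqp2, a defining marker of the collecting duct, read -137 and -132 in wild type and 42.3 and 76.5 in knock-out. Krt5 read 10.8 and 17.7 against -39.2 and -43.0, and Avpr2 read 52.4 and 68.4 against 115 and -1.80. The summed intensity of these markers was 1096 and 1038 in wild type and 1178 and 912 in knock-out, so the groups overlapped, and the part of such cells in the Scnn1b values was not tested. On MG-U74B the only marker with a probe set, the water channel Aqp3, read 157 and 170 in wild type and 619 and 309 in knock-out and did not pass (1.30 ± 0.38, adjusted p = 0.0816).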

How the data were processed

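Per the labels' protocols, total RNA of islets was labelled by the Affymetrix standard protocol. The deposited intensities, linear and 1 per probe set, had been scaled by the authors: trimmed by 2% at each end, the array means were 250.2 (MG-U74A) and 250.1 (MG-U74B). Which program made them is not stated in the labels, and no detection calls were used here. Each array was brought to the common trimmed mean, negatives were raised to 0, and the log2 of the intensity plus 25 was used, which understates changes of dim genes. Control probe sets and those with a mean below 62.5 were not tested, leaving 7516 and 7861. Genotypes were compared within each array type with limma 3.58.1 (R 4.3.3, lmFit, eBayes with trend, two-sided). Benjamini-Hochberg adjustment ran over all tested probe sets of the array type, with a threshold of 0.05. An exact test of 2 against 2 arrays cannot reach that threshold. A run on simulated data had independent noise, no floor at 0 and few changed probe sets. These arrays differ in that, so nothing is read from it for the calls.

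Symbols came from the array annotation, updated through RefSeq's GRCm38.p6 table, for 10839 and 10572 of 10855 and 10603 probe sets with 1 symbol. A gene stands by its brightest tested probe set. The genes named are the subunits, up to 4 rises and 4 falls per list and array type that passed with groups apart, list genes whose role needed a value, the 5 nearest profiles and the nearest annotated neighbours. Members and lists were chosen with earlier results of these data known. The targeted gene is not reported here, and genotypes rest on the labels. Alternatives were other scalings, pseudocounts, filters and variance models, a replicate block and leaving out each array.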

Additional observations from a re-analysis of the deposited data

How the results depend on the processing

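The log2 difference of Scnn1b, whose direction was fixed by how the gene was chosen, was -7.13 with a pseudocount of 10, -4.84 with 50, and between -5.89 and -5.75 with 1 array left out. The count of probe sets past the threshold on MG-U74A, 3974, was between 2264 and 4097 with 1 array left out. On MG-U74B it was 1372, falling to 764 with no filter, to 638 without the variance trend and to between 0 and 538 with 1 array left out, where the lone array is assumed to vary like the others. On MG-U74A the acid-sensing channels gave 0 with no filter, and salt and water transport gave 7. With 1 array left out, the acid-sensing channels gave 0 to 1, control genes 5 to 8, proteases and inhibitors 1 to 2 and salt and water transport 1 to 4. On MG-U74B the control genes gave 1 with a pseudocount of 50, with no filter, with the stricter filter and with every probe set counted. Salt and water transport gave 2 with quantile normalization and 0 with no filter, voltage-gated channels 0 with no filter and 0 with no variance trend, and both gave 0 with any array left out. The causes were not tested. Across 370 alternatives of 31 genes that passed, not all of them named here, 36 lost the call and 0 reversed. For each of these genes both knock-out arrays lay on 1 side of both wild type arrays. A reversal was therefore largely excluded beforehand, and nothing is read from the 0.

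Same-numbered replicates did not deviate together (correlation 0.0241 on MG-U74A and 0.0316 on MG-U74B), so they share only a number. With the replicate block 3628 and 1209 probe sets passed. No detection calls or scanner files were used here, so the depth of signal over background behind the values of Scnn1b below 0 is unknown.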
